A study of Homo sapiens with 8 samples.

Results

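The genes described here are those of cyclin D1 and G1 control: the D-type cyclins CCND1, CCND2 and CCND3, their kinases CDK4 and CDK6, the CDK inhibitors CDKN1A (p21), CDKN1B (p27) and CDKN2C (p18), the retinoblastoma gene RB1, and MYC. They form a functional group, chosen with earlier results of these data known. Each gene was represented by the transcript cluster with 1 gene symbol that had the highest mean signal over the arrays. Of the 10 genes, 9 were measured in this way, among 18417 genes with such a cluster and 33297 transcript clusters in all. For CDKN2C no cluster with 1 symbol was found in the annotation used here, and it was not analysed here.

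D-type cyclins accumulate in response to growth signals and bind CDK4 or CDK6, and the active kinases phosphorylate the RB1 protein. Phosphorylated RB1 releases E2F transcription factors, which switch on genes for DNA replication, whereas p21, p27 and the INK4 proteins hold the kinases back and MYC drives cell growth and G1 progression. In clear cell renal cell carcinoma (RCC), which usually lacks the tumour suppressor VHL, cyclin D1 is known as a gene that responds to the hypoxia-inducible factor HIF2α.

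The 786-O line is a human RCC line without functional VHL, the substrate-binding subunit of a ubiquitin ligase that targets HIFα proteins to the proteasome. The VHL- groups were 786-O without any vector. The VHL+ groups were 786-O with a VHL overexpression vector, described in the study as bulk cultures of stable transfectants. Both lines were kept for 24 h under normoxia or under hypoxia (1% O2). Total RNA of 2 biological replicates of each of the 4 groups was measured on 8 Affymetrix gene arrays, and no other treatment was given. Cells with the empty vector were not among the arrays, so that VHL cannot be told apart from transfection, selection or other differences between the lines, and the p values rest on 2 cultures per group.

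The deposited values were log2 signals, in which a difference of 1 is a 2-fold change, and the arrays' medians lay between 6.60 and 6.91. The replicates correlated at 0.991 to 0.994 (Pearson) across transcript clusters, which are not independent. VHL, the transfected gene, had log2 signals from 8.23 to 8.51 on the VHL- arrays and from 8.85 to 9.16 on the VHL+ arrays. These ranges did not overlap, as in 13.5% of all clusters (log2 fold change over both oxygen conditions 0.63, SE 0.11, limma adjusted p = 0.000109). The renal marker PAX8 lay between 10.35 and 10.71. Of 7 renal epithelial markers 2 were higher with VHL over both oxygen conditions, against 10.6% of all clusters. Of genes with a mean above the median of all signals 23% were higher. They were PAX2 (log2 fold change 0.56) and CDH6 (0.44, or 0.36 without VHL+ hypoxia replicate 1). CDH6 did not pass after quantile normalization (0.34, limma adjusted p = 0.0940). LRP2 and CUBN of the mature proximal tubule were below the array's own median on all 8 arrays. Of the 9 markers of other cell types, 0 passed with VHL over both conditions, against 14.3% of all clusters. At an unadjusted p under 0.05 there were 0, against 7528 of 33297 clusters. LUM alone exceeded the array median on any array (6 of 8), with 6.29 and 8.65 on the replicates of VHL- cells under normoxia. The leukocyte marker PTPRC lay at 5.52 to 5.80. The median of all clusters differed by 0.16 between VHL+ and VHL- cells under hypoxia and by -0.12 between hypoxia and normoxia in VHL- cells, and it shifted by 0.21 in the interaction of VHL and hypoxia. In bulk RNA, fewer cells that express a gene and less RNA per cell cannot be told apart.

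The first question was whether G1 control genes differed with VHL. Under normoxia, CCND1 fell and RB1 rose with VHL, and the other 7 measured genes did not pass. Thus 2 of 9 genes were called (limma, adjusted p under 0.05), against 4.77% of all clusters (2.07% higher and 2.69% lower). Under hypoxia RB1 and CCND3 were higher in VHL+ cells, again 2 of 9 genes, against 11.6% of all clusters (10.3% higher and 1.31% lower). Over both oxygen conditions, in a fit with VHL status and oxygen as factors, CCND1 was lower and CCND3 and RB1 were higher in VHL+ cells. This was 3 of 9 genes, against 14.3% of all clusters, which include clusters with low signals. Of 11150 genes with a mean above the median of all signals, 23% were higher and 7% lower. All measured members except CCND2 lay above the array's own median on all 8 arrays. The count of 3 of 9 thus does not set them apart from such genes. Between VHL+ hypoxia and VHL- normoxia, CCND3 and RB1 were higher, 2 of 9 genes against 7.67% of all clusters. Over both oxygen conditions the median log2 fold change of the 9 genes was 0.08, and that of all clusters 0.06. The split of calls depended on the scaling. Of 18365 genes with a known chromosome, 14.4% were higher and 1.70% lower with VHL under hypoxia, against 4.20% and 3.63% after quantile normalization and 3.88% and 2.15% after median centring. Over both oxygen conditions the shares of 15.0% and 4.76% became 12.0% and 9.43% after the former and 13.1% and 6.82% after the latter.

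**Figure D1:**
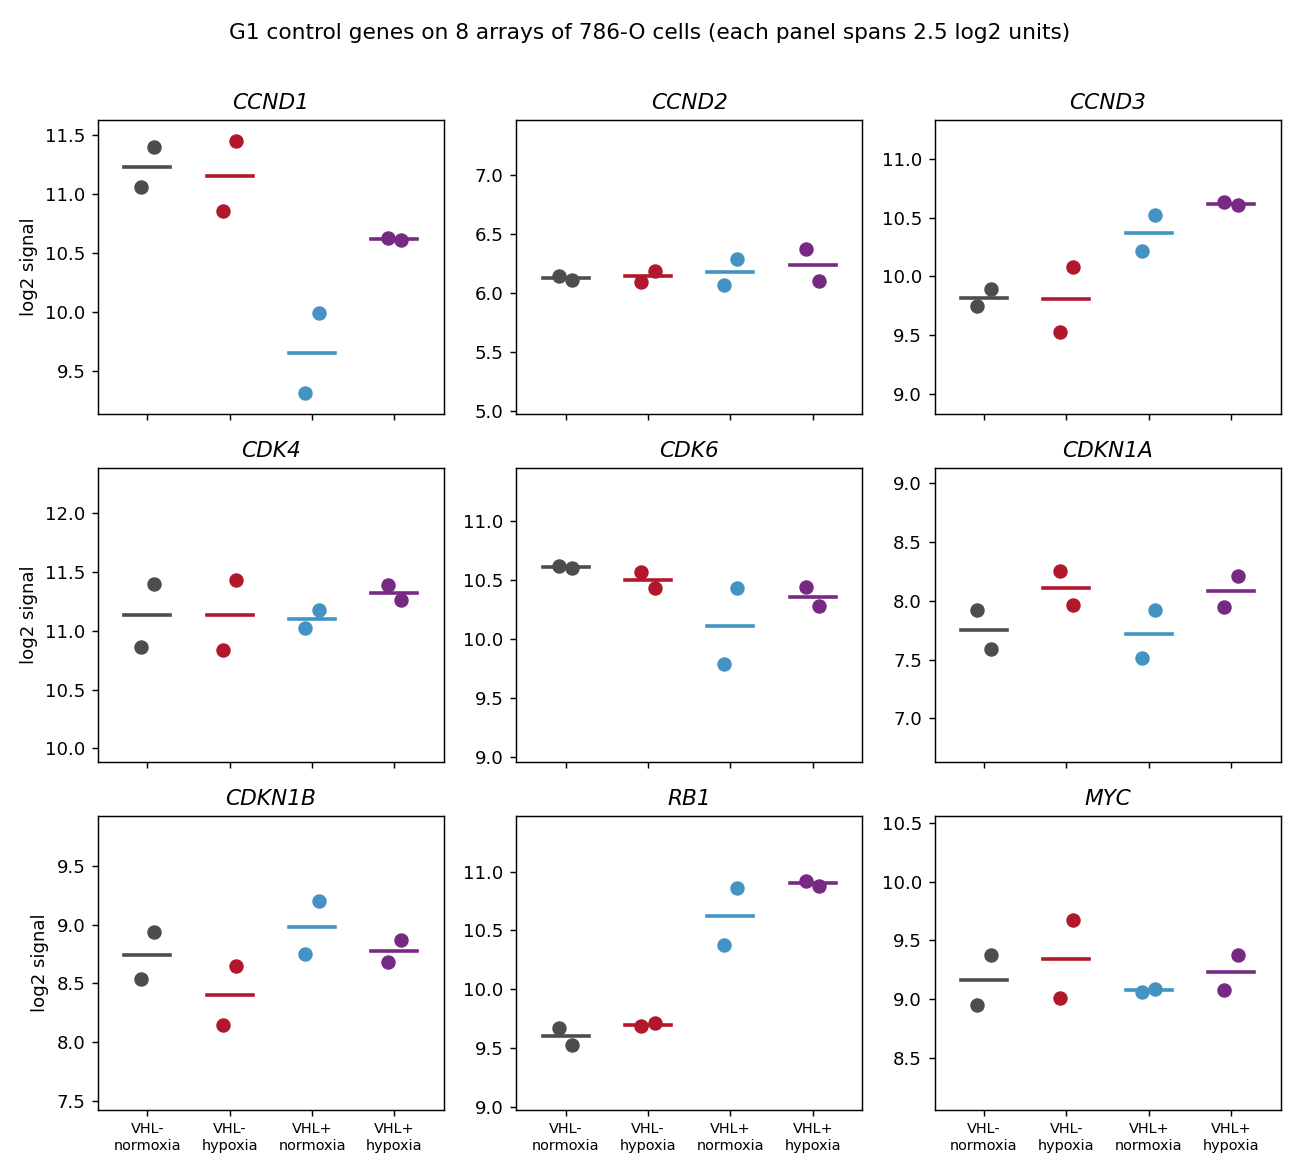
Log2 signals of the 9 measured G1 control genes (y axis, each panel spanning 2.5 log2 units) in the 4 groups (x axis). Points are single arrays and lines are means of 2. CCND1 was lowest in VHL+ cells under normoxia (9.31 and 9.99), and RB1 lay higher on every VHL+ array than on any VHL- array. Such a lack of overlap, in either direction, was seen in 13.5% of all clusters.

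CCND1 encodes cyclin D1. In VHL- cells its log2 signals were 11.06 and 11.40 under normoxia and 10.86 and 11.45 under hypoxia. In VHL+ cells they were 9.31 and 9.99 under normoxia and 10.63 and 10.61 under hypoxia. All 4 VHL+ arrays lay below all 4 VHL- arrays, a lack of overlap seen, in either direction, in 13.5% of all clusters. The arrays of VHL+ cells under normoxia lay lowest. The order of the group means was thus VHL- normoxia (11.23 ± 0.24, SD, n = 2), VHL- hypoxia (11.15 ± 0.42), VHL+ hypoxia (10.62 ± 0.01) and VHL+ normoxia (9.65 ± 0.48).

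In VHL+ vs. VHL- cells under normoxia, CCND1 fell 2.98-fold (log2 fold change -1.58, SE 0.21, 95% confidence interval -2.01 to -1.14, limma adjusted p = 0.000104). This was -1.54 relative to the median of all clusters. Under hypoxia the log2 fold change was -0.54 (SE 0.21, adjusted p = 0.110) and did not pass, or -0.69 relative to the median of all clusters. Over both oxygen conditions CCND1 was 2.08-fold lower in VHL+ cells (log2 fold change -1.06, SE 0.17, adjusted p = 6.78e-05). The call under normoxia was lost in a fit to the compared groups alone (adjusted p = 0.0655) and with the methods' one-way test. The difference under hypoxia passed without VHL- hypoxia replicate 1 (-0.83, adjusted p = 0.00154), without either VHL- normoxia array (adjusted p = 0.0211) and without either VHL+ normoxia array (adjusted p = 0.0153).

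The second question was whether oxygen altered the genes. In VHL- cells the 2 neighbouring group means of CCND1 differed by -0.08 (SE 0.21, adjusted p = 0.880), less than the spread between replicates. In VHL+ cells, CCND1 had a 1.95-fold higher mean signal under hypoxia than under normoxia, with groups that did not overlap, as in 30.4% of all clusters (log2 fold change 0.96, SE 0.21, 95% confidence interval 0.53 to 1.40), but an adjusted p of 0.0844. The difference between these effects, the interaction of VHL and hypoxia, was 1.04 (SE 0.29, unadjusted p = 0.00223, adjusted p = 0.651), or 0.83 relative to the median of all clusters. VHL+ cells under hypoxia remained below VHL- cells under normoxia (log2 fold change -0.61, SE 0.21, adjusted p = 0.0824), which did not pass.

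Whether these values passed depended on single arrays and on the fit. With trend and robust estimation over all 8 arrays, CCND1 passed for hypoxia in VHL+ cells (adjusted p = 7.71e-06), the interaction (0.00894), VHL under hypoxia (0.0137) and VHL+ hypoxia vs. VHL- normoxia (0.00448). The hypoxia effect in VHL+ cells passed when either VHL- normoxia array (adjusted p = 2.12e-05), either VHL- hypoxia array (1.42e-05) or VHL+ normoxia replicate 2 (1.30, adjusted p = 3.69e-05) was left out, and had an adjusted p of 0.630 after quantile normalization and 0.664 after median centring. The interaction passed without VHL- normoxia replicate 1 (1.21, adjusted p = 0.00724), VHL- hypoxia replicate 2 (1.34, 0.000496) or VHL+ normoxia replicate 2 (1.38, 0.00310). The difference between VHL+ hypoxia and VHL- normoxia passed without VHL- normoxia replicate 1 (-0.78, adjusted p = 0.00739), either VHL- hypoxia array (0.00344) or either VHL+ normoxia array (0.00628). The hypoxia effect over both cell types, 0.44 with an adjusted p of 0.681, passed without VHL- hypoxia replicate 1 (0.67, adjusted p = 0.0298) or VHL- normoxia replicate 2 (0.61, adjusted p = 0.00177).

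No G1 control gene was called for oxygen. In limma, 0 of 9 genes passed in VHL- cells, against 0.0661% of all clusters, with 0 genes at an unadjusted p under 0.05. In VHL+ cells 0 of 9 passed, against 0.153% of all clusters, with 2 genes (CCND1 and CDKN1A) at an unadjusted p under 0.05. For the interaction, 0 of 9 passed, against 0.00601% of all clusters, with CCND1 alone at an unadjusted p under 0.05. Over both cell types 0 of 9 passed, against 0.171% of all clusters, with 3 genes (CCND1, CDKN1A and CDKN1B) at an unadjusted p under 0.05. The methods' one-way test gave 0 genes in each of these 4 comparisons.

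**Figure D2:**
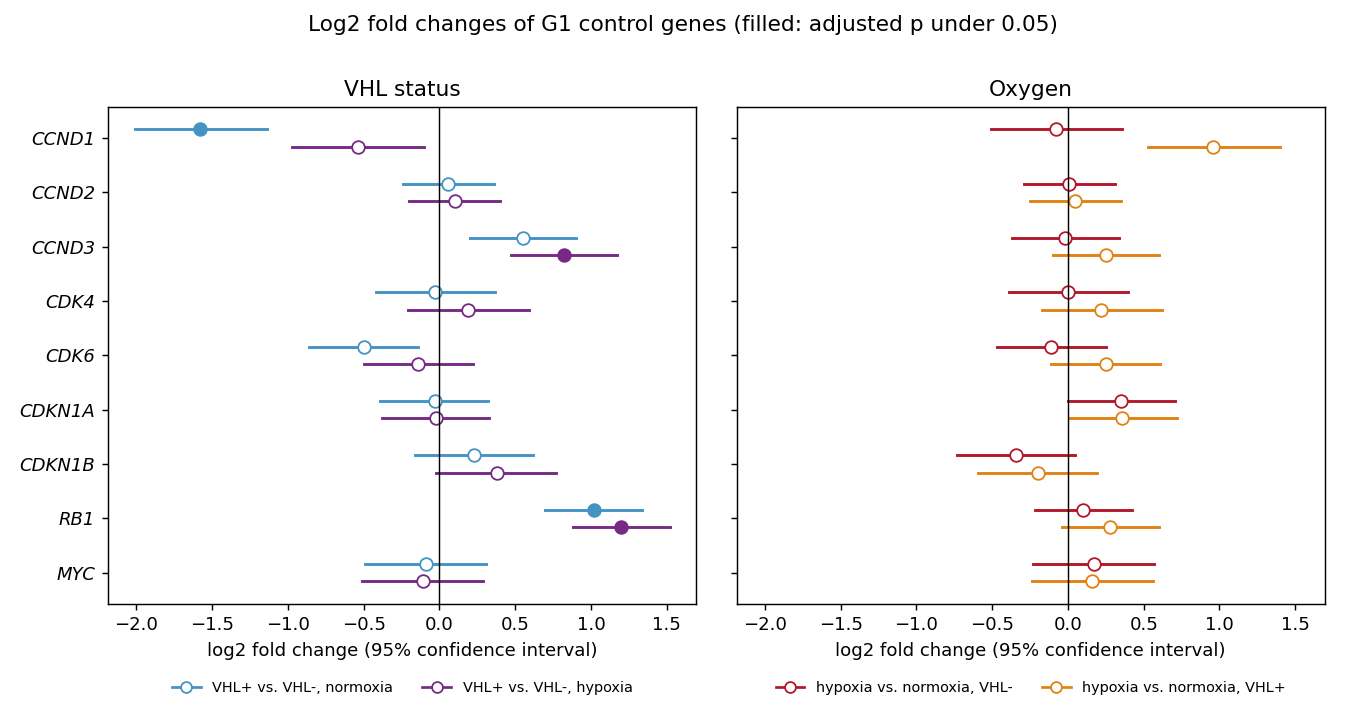
Log2 fold changes (x axis) of the 9 genes (y axis) for VHL status (left) and oxygen (right). Points are estimates, bars 95% confidence intervals, and filled points passed an adjusted p of 0.05. Filled points are CCND1 (-1.58) and RB1 (1.02) under normoxia and CCND3 (0.82) and RB1 (1.20) under hypoxia, and no point is filled for oxygen.

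Of the other D-type cyclins, CCND3 was higher in VHL+ cells and CCND2 had low signals throughout. The signals of CCND3 in VHL- cells were 9.75 and 9.89 (normoxia) and 9.53 and 10.08 (hypoxia), and in VHL+ cells 10.22 and 10.52 (normoxia) and 10.63 and 10.61 (hypoxia). All 4 VHL+ arrays lay above all 4 VHL- arrays, the direction opposite to CCND1. Such a lack of overlap between the 4 VHL+ and 4 VHL- arrays was seen in 13.5% of all clusters. Under normoxia the log2 fold change was 0.55 (SE 0.17, limma adjusted p = 0.0736), and under hypoxia 0.82 (SE 0.17, adjusted p = 0.00383). Over both conditions CCND3 was 1.61-fold higher in VHL+ cells (0.68, SE 0.12, adjusted p = 0.000181). VHL+ cells under hypoxia had a log2 fold change of 0.80 (adjusted p = 0.00550) against VHL- cells under normoxia.

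The CCND3 call under hypoxia was lost after quantile normalization (0.54, adjusted p = 0.0509) and median centring (adjusted p = 0.0789), and without VHL- hypoxia replicate 1 (0.54, adjusted p = 0.0602), VHL+ hypoxia replicate 1 (0.172) or replicate 2 (0.108). Against VHL- normoxia it was lost without either VHL+ hypoxia array (adjusted p = 0.210 and 0.176). Under normoxia CCND3 passed without either VHL- hypoxia array (adjusted p = 0.00946) or VHL+ normoxia replicate 1 (0.0147). CCND2, whose signals ran from 6.07 to 6.37, lay below the array's own median on all 8 arrays, and its log2 fold changes were between 0.01 and 0.11 in the pairwise comparisons.

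CDK4 and CDK6 are the partners of the D-type cyclins. The signals of CDK6 in VHL- cells were 10.62 and 10.60 (normoxia) and 10.57 and 10.43 (hypoxia), and in VHL+ cells 9.79 and 10.43 (normoxia) and 10.44 and 10.28 (hypoxia). The low array was VHL+ normoxia replicate 1, the array on which CCND1 was lowest too. In VHL+ vs. VHL- cells under normoxia the log2 fold change of CDK6 was -0.50 (SE 0.17, limma adjusted p = 0.125). It passed without VHL+ normoxia replicate 2 (-0.82, adjusted p = 0.00178) and without either VHL- hypoxia array (adjusted p = 0.0287). Over both oxygen conditions it was -0.32 (SE 0.12, adjusted p = 0.0940), passing after quantile normalization (-0.45, adjusted p = 0.0185), without VHL- hypoxia replicate 2 (adjusted p = 0.0443) and without VHL+ normoxia replicate 2 (adjusted p = 0.0305).

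CDK4 had signals between 10.84 and 11.43, and the widest spread lay between replicates of VHL- cells (10.86 and 11.40 under normoxia, 10.84 and 11.43 under hypoxia). The VHL-dependent log2 fold change of CDK4 was -0.03 (95% confidence interval -0.42 to 0.37) under normoxia and 0.19 (-0.21 to 0.59) under hypoxia. MYC, a transcription factor that activates CDK4 through E-boxes, had 8.95 and 9.38, 9.01 and 9.67, 9.06 and 9.09, and 9.08 and 9.38 in VHL- normoxia, VHL- hypoxia, VHL+ normoxia and VHL+ hypoxia. The 4 groups overlapped, and the log2 fold change of MYC was -0.09 (-0.49 to 0.31) with VHL under normoxia and -0.11 (-0.51 to 0.29) under hypoxia. These intervals are not limits of detection, since a call also had to pass the adjustment over all clusters. In simulated data for VHL under normoxia, log2 changes of 1 and 0.5 were called in 69% and 3% of the changed clusters. Far fewer clusters were changed there than the 1587 called in the data, and the adjustment depends on that number. The rates therefore need not hold in these data. With 2 arrays per group, changes larger than these intervals could still be missed in other genes.

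The promoter of CDK4 is shown because it joins these genes. Sequence of 250 bases before a gene start was found for 6 of 8 members searched in the RefSeq promoter table (GRCh38.p14). No sequence was found for CCND1 or CCND2, and MYC was not searched. The stretch of CDK4 is chr12:57752311-57752560 on the minus strand, written 5′ to 3′ toward the start, with the E-box CACGTG, the sequence bound by MYC and MAX, in capitals.
CDK4: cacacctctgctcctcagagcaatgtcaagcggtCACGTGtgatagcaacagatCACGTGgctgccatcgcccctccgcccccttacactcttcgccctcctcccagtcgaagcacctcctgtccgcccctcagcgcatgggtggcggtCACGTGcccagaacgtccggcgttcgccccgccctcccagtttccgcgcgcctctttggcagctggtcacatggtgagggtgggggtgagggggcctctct
The letters CACGTG, searched on both strands, occurred 3 times, beginning 216, 196 and 101 bases before the start. Of 35116 promoters of this length, 6.34% held CACGTG at least once and 28 (0.0797%) held it 3 or more times. Each CACGTG also holds ACGTG, which with GCGTG is the core bound by HIF and was found in 43.2% of promoters. Of 9 promoters of the members, 1 held CACGTG, that of CDK4, and 5 held the HIF core. These are matches of letters, and the signal of CDK4 did not pass in any comparison.

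The CDK inhibitors did not pass with VHL. CDKN1A, which encodes p21, had signals in VHL- cells of 7.92 and 7.59 under normoxia and 8.25 and 7.96 under hypoxia. In VHL+ cells it had 7.51 and 7.92 under normoxia and 7.95 and 8.21 under hypoxia. All 4 hypoxia arrays lay above all 4 normoxia arrays, though narrowly (lowest 7.95 against highest 7.92). Such a lack of overlap, in either direction, was seen in 0.952% of all clusters. The log2 fold change of hypoxia vs. normoxia was 0.35 in VHL- and 0.36 in VHL+ cells (SE 0.17 each), with a difference of 0.01 (SE 0.24), and over both cell types 0.36 (SE 0.12, unadjusted p = 0.00570, limma adjusted p = 0.421). With VHL, CDKN1A had log2 fold changes of -0.03 (95% confidence interval -0.39 to 0.32) under normoxia and -0.02 (-0.38 to 0.33) under hypoxia.

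CDKN1B, which encodes p27, had signals in VHL- cells of 8.54 and 8.94 (normoxia) and 8.15 and 8.65 (hypoxia), and in VHL+ cells of 8.75 and 9.20 (normoxia) and 8.68 and 8.87 (hypoxia). The VHL+ and VHL- arrays overlapped, and the lowest value was on an array of VHL- cells under hypoxia. The log2 fold change with VHL was 0.30 over both oxygen conditions (SE 0.13, limma adjusted p = 0.130), and 0.38 (adjusted p = 0.231) under hypoxia. It passed over both conditions without VHL- normoxia replicate 2 (0.40, adjusted p = 0.0271), VHL- hypoxia replicate 2 (0.39, 0.0420) or VHL+ normoxia replicate 1 (0.41, 0.0231), and under hypoxia without VHL- hypoxia replicate 2 (0.62, 0.0155). Of the 4 other CDK inhibitors, 0 passed with VHL over both conditions, against 14.3% of all clusters. At an unadjusted p under 0.05 there were 0, against 7528 of 33297 clusters. With only 4 genes, counts of 0 do not set them apart. CDKN2A (6.29 to 6.73) and CDKN2B (6.31 to 6.67), both of the INK4 family, were below the array's own median on all 8 arrays. CDKN2D, also of the INK4 family, lay between 7.31 and 7.59, above the array's own median on all 8 arrays. CDKN1C and CDKN2D had log2 fold changes of 0.12 and 0.15.

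RB1 was the member with the lowest adjusted p. Its log2 signals in VHL- cells were 9.67 and 9.53 (normoxia) and 9.69 and 9.71 (hypoxia), and in VHL+ cells 10.38 and 10.86 (normoxia) and 10.92 and 10.88 (hypoxia). The VHL+ arrays all lay above the VHL- arrays, at either oxygen level, and 13.5% of all clusters likewise had no overlap. RB1 was 2.03-fold higher in VHL+ cells under normoxia (log2 fold change 1.02, SE 0.15, limma adjusted p = 4e-04) and 2.30-fold higher under hypoxia (1.20, SE 0.15, adjusted p = 6.14e-05), and over both 2.16-fold higher (1.11, SE 0.11, adjusted p = 4.87e-08). Hypoxia gave log2 fold changes of 0.10 (SE 0.15) in VHL- and 0.28 (SE 0.15) in VHL+ cells, which did not pass. The call under hypoxia was lost without VHL+ hypoxia replicate 1 (1.19, adjusted p = 0.0532), and that under normoxia in a fit to the compared groups alone (adjusted p = 0.0765).

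The genes next to RB1 on chromosome 13 were higher in VHL+ cells too. Of the 10 nearest measured genes, 5 on each side in the RefSeq gene order of GRCh38.p14, 6 were higher over both oxygen conditions and 0 lower, with a median log2 fold change of 0.57. These 6 were ESD (0.54), SUCLA2 (0.65), MED4 (0.67), ITM2B (0.59), RCBTB2 (0.88) and FNDC3A (0.85), while HTR2A, LPAR6, CYSLTR2 and MLNR had -0.03 to 0.13. On the arrays, ITM2B had 11.19 and 11.02 (normoxia) and 11.07 and 10.82 (hypoxia) in VHL- cells. In VHL+ cells it had 11.48 and 11.61 (normoxia) and 11.72 and 11.65 (hypoxia), again without overlap, as in 13.5% of all clusters. The receptor genes HTR2A, LPAR6 and CYSLTR2 lay below the array's own median on all 8 arrays. This account of neighbours was added after the values of RB1 had been seen.

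Along the whole of chromosome 13, 152 of 317 genes (47.9%) were higher and 3 (0.946%) lower in VHL+ cells, against 15.0% higher and 4.76% lower among 18365 genes of all chromosomes. The next highest share was 28.5%, on chromosome 2. Among genes with a mean above the median of all signals, 144 of 191 on chromosome 13 (75.4%) were higher, with a median log2 fold change of 0.67, against 23% of 11150 genes of all chromosomes. RB1 ranked 21 of these 191 by its log2 fold change and TFDP1, an E2F partner, ranked 47. The share of chromosome 13 was 46.4% after quantile normalization and 46.7% after median centring, 29.7% under normoxia alone and 48.3% under hypoxia alone. The part of this chromosome-wide difference in the result for RB1 was not tested. Around CCND1 and CCND3, 0 of the 10 nearest genes were called, with median log2 fold changes of -0.01 and 0.05. Around CDKN1B and around CCND2, both on chromosome 12, 4 of the 10 nearest genes were higher and 0 lower, with medians of 0.26 and 0.23.

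**Figure D3:**
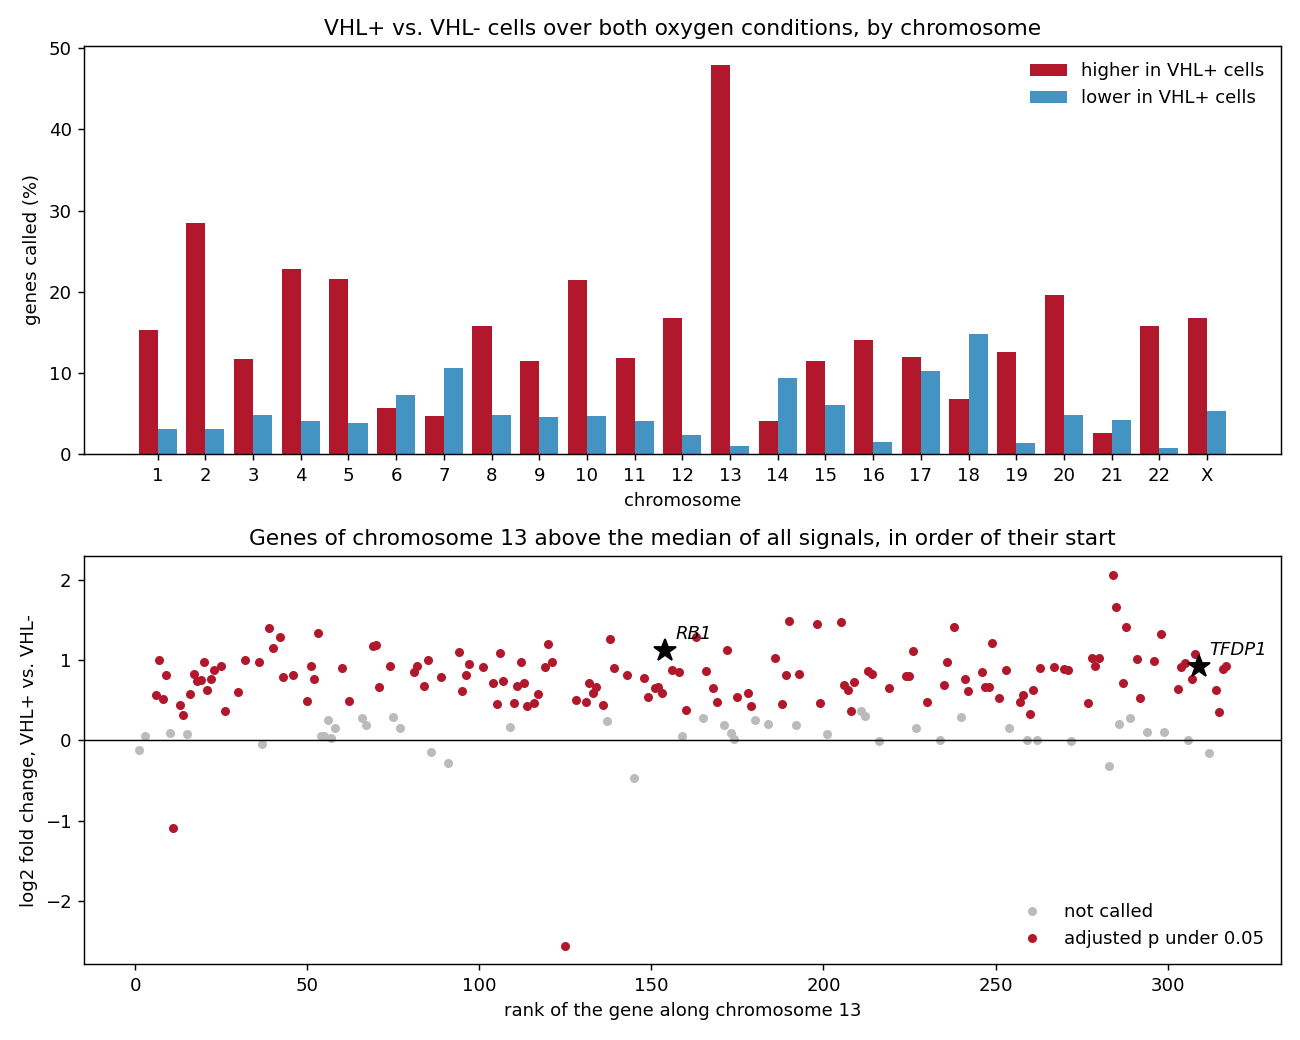
Top, share of genes called higher or lower in VHL+ vs. VHL- cells over both oxygen conditions (y axis, percent) by chromosome (x axis). Bottom, log2 fold changes (y axis) of the 191 genes of chromosome 13 above the median of all signals, by their rank along the chromosome (x axis). Called genes above 0 lie along the whole chromosome, with RB1 and TFDP1 as stars, and the share of genes called higher is 47.9% on chromosome 13.

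Downstream of RB1, both DP partners of E2F proteins, RBL1 and E2F8 were higher and E2F7 was lower in VHL+ cells. With VHL over both oxygen conditions, 4 of 12 other pocket proteins and E2F factors rose and 1 fell, against 10.6% and 3.72% of all clusters. Among genes above the median of all signals these shares were 23% and 7%. The higher ones were TFDP1 (log2 fold change 0.91, SE 0.11, limma adjusted p = 1.57e-06), TFDP2 (0.56), the other partner of E2F proteins, the repressor E2F8 (0.78) and RBL1 (0.56), which encodes the pocket protein p107. The repressor E2F7 was lower (-0.58, SE 0.14, adjusted p = 0.00372). TFDP1 had 10.80 and 10.90 (normoxia) and 10.63 and 11.15 (hypoxia) in VHL- cells against 11.67 and 11.69 (normoxia) and 11.95 and 11.83 (hypoxia) in VHL+ cells. Its VHL+ arrays all lay above its VHL- arrays, a lack of overlap seen in 13.5% of all clusters. The array VHL+ hypoxia replicate 1, which had the highest median of all arrays (6.91), mattered for several gene groups that follow. Without it RBL1 (adjusted p = 0.0568) and E2F7 (0.0516) did not pass.

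Of 17 E2F target genes of DNA replication, 2 were higher and 1 lower with VHL over both conditions. Of all clusters 10.6% were higher and 3.72% lower, and of genes above the median of all signals 23% and 7%. After quantile normalization 0 genes of this list were higher and 3 lower. Without VHL- hypoxia replicate 1 or VHL+ hypoxia replicate 1, 0 were higher, without VHL- hypoxia replicate 2 3 were higher, and 4 were higher without VHL- normoxia replicate 2, VHL+ normoxia replicate 1 or VHL+ hypoxia replicate 2. TK1, thymidine kinase, and UHRF1, a reader of hemimethylated DNA, each had a log2 fold change of 0.47 (adjusted p = 0.00963 and 0.0165). UHRF1 did not pass with the mean of its clusters (0.25, adjusted p = 0.142). CDC6, a licensing factor of replication, had 9.64 and 9.85 (normoxia) and 9.33 and 9.91 (hypoxia) in VHL- cells against 8.96 and 8.81 (normoxia) and 9.65 and 9.15 (hypoxia) in VHL+ cells. Its VHL+ arrays under normoxia lay lowest and the other groups overlapped, and its log2 fold change was -0.86 (SE 0.19, adjusted p = 0.00899) with VHL under normoxia, lost after quantile normalization (adjusted p = 0.0612) or median centring (0.0706) and without either VHL+ hypoxia array (0.0912).

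Of 8 genes of cyclin E and A, CDK2 and the CDK-activating kinase, 4 were higher and 0 lower with VHL over both conditions. Of all clusters, 10.6% were higher and 3.72% lower, and of genes above the median of all signals 23% were higher. The 4 genes were CCNA2, encoding cyclin A2 (log2 fold change 0.49, limma adjusted p = 0.00211), CDK2 (0.45), and CDK7 (0.39) and CCNH (0.42) of the CDK-activating kinase. Of 11 ubiquitin ligase subunits of G1 regulators, 3 were higher and 0 lower, near the share of genes above the median. The 3 were SKP2, whose ligase targets p27 (0.57, adjusted p = 0.00224), its partner SKP1 (0.34), and the APC/C activator FZR1 (0.48). Without VHL+ hypoxia replicate 1, 1 gene of the first list was higher and 1 lower, and 0 genes of the second list were higher. Without VHL+ normoxia replicate 2, 2 genes of either list were higher, and 2 genes of the second list were higher without VHL- normoxia replicate 2, VHL- hypoxia replicate 2 or VHL+ hypoxia replicate 2, and 5 without VHL+ normoxia replicate 1. After quantile normalization 3 genes of the first list rose and 1 fell, and 2 of the second rose and 1 fell.

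Of 12 MYC partners and antagonists, 2 were higher and 0 lower with VHL over both conditions, against 10.6% and 3.72% of all clusters. These were the antagonists MXD3 (log2 fold change 0.42, limma adjusted p = 0.0112) and MXD4 (0.36, adjusted p = 0.0267). After quantile normalization 1 was higher and 2 were lower, and 0 were higher without VHL- hypoxia replicate 1 or VHL+ hypoxia replicate 1, and 1 without VHL- hypoxia replicate 2. Of 15 measured MYC target genes of ribosome biogenesis, 6 were higher and 0 lower beside the same 10.6% and 3.72%, among them POLR1B, a subunit of RNA polymerase I (0.52, adjusted p = 0.00154), NOP58 (0.57), WDR12 (0.46) and MYBBP1A (0.46). The number called was 5 after quantile normalization, 2 without VHL+ hypoxia replicate 1 and 9 without VHL- normoxia replicate 2 or VHL+ normoxia replicate 1. The median log2 fold change of the list was 0.32, against 0.06 over all clusters. Among genes above the median of all signals 23% were higher, with a median of 0.12.

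p53 target genes include CDKN1A, which did not pass with VHL, and 17 others were examined. Of these, 7 were higher and 0 lower in VHL+ cells over both conditions, against 10.6% and 3.72% of all clusters. Of genes above the median of all signals 23% were higher. The list median was 0.26, and that of all clusters 0.06. TP53INP1 (log2 fold change 0.91, limma adjusted p = 3.68e-07) and ZMAT3 (0.80, adjusted p = 4.11e-06) had the lowest adjusted p, followed by RRM2B (0.55), a ribonucleotide reductase subunit, and MDM2 (0.51), which encodes the ligase of p53. TP53INP1 had 6.59 and 6.36, and 6.39 and 6.35 in VHL- cells, and 7.34 and 7.28, and 7.39 and 7.34 in VHL+ cells, under normoxia and hypoxia each. The VHL+ and VHL- arrays lay apart, as in 13.5% of all clusters, although the VHL- values were below the median of their arrays. The number of genes called higher was 5 after quantile normalization and 3 without VHL+ hypoxia replicate 1, when MDM2 did not pass (adjusted p = 0.0679).

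Hypoxia called no gene of these lists. In the 8 lists besides the HIF targets and the markers, 0 of 96 genes passed in limma for hypoxia in VHL- cells, against 0.0661% of all clusters. At an unadjusted p under 0.05 there were 4, against 1765 of 33297 clusters. In VHL+ cells 0 of 96 passed, against 0.153% of all clusters. There 5 had an unadjusted p under 0.05, against 2052 of 33297 clusters. With so few clusters called at all, 0 of 96 does not set these lists apart.

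The signals of CCND1 were set beside those of HIF target genes. Of 10 measured targets, 8 were lower in VHL+ cells under normoxia and 0 higher, against 2.69% and 2.07% of all clusters. Under hypoxia 4 were lower and 1, TGFA (log2 fold change 0.73, limma adjusted p = 0.0102), was higher, against 1.31% and 10.3%. The TGFA call was lost after quantile normalization (0.45, limma adjusted p = 0.226) and median centring (0.55, 0.161). Hypoxia gave 1 higher target in VHL- cells and 4 higher targets in VHL+ cells, against 0.0210% and 0.150% of all clusters, with 0 lower in either. The VHL and hypoxia comparisons share groups, so that their counts are not independent. Without VHL+ hypoxia replicate 1 no target was called for hypoxia in VHL+ cells, and without replicate 2 of that group 1 was. Without either of them, no target was called for VHL under hypoxia or for hypoxia in VHL- cells, and 3 were lower with VHL under normoxia. Without a single VHL- array, 7 or 8 targets were higher with hypoxia in VHL+ cells, and 6 without VHL+ normoxia replicate 2. In VHL- cells, 3 targets were higher with hypoxia without VHL- hypoxia replicate 2, and 2 without either VHL- normoxia array or either VHL+ normoxia array. With VHL under hypoxia, 2 were higher and 3 lower without either VHL- hypoxia array. After quantile normalization 6 targets were lower under normoxia, 3 under hypoxia, and 1 was higher with hypoxia in VHL+ cells.

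NDRG1, a stress-response gene, was lower with VHL under normoxia (log2 fold change -1.47, SE 0.14, limma adjusted p = 3.23e-06) and higher with hypoxia by 2.28 in VHL+ and 1.07 in VHL- cells. SLC2A1, the glucose transporter GLUT1, had -1.08 (SE 0.16, adjusted p = 0.000296) with VHL under normoxia and 1.49 with hypoxia in VHL+ cells. The hypoxia call of NDRG1 in VHL- cells was lost after quantile normalization (limma adjusted p = 0.228) and median centring (0.0634). That of SLC2A1 in VHL+ cells was lost after them too (0.0886 and 0.192). With VHL under hypoxia these genes had -0.26 and -0.13, which did not pass. LOX, a lysyl oxidase of the matrix, differed by -2.70 with VHL under normoxia and by -2.37 under hypoxia. Its VHL- replicates lay far apart (9.66 and 8.24 under normoxia, 9.48 and 7.85 under hypoxia). Both calls were lost with trend and robust estimation (limma adjusted p = 0.221 and 0.164), quantile normalization (0.0607 and 0.0743) and median centring (0.0657 and 0.0672). In VHL+ cells its signals (6.18 to 6.35) lay below the array's own median, so the log2 fold change of 0.04 with hypoxia there says little.

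VEGFA, an angiogenic growth factor, had -1.49 (SE 0.20, adjusted p = 0.000165) with VHL under normoxia, -1.03 (adjusted p = 0.00307) under hypoxia and 0.69 (adjusted p = 0.359) with hypoxia in VHL+ cells. The corresponding values of CCND1 were -1.58, -0.54 and 0.96, and those of ADM, the vasodilator adrenomedullin, -1.64, -0.74 and 1.19. The ADM call for hypoxia in VHL+ cells was lost after quantile normalization (limma adjusted p = 0.333) and median centring (0.455). With VHL under hypoxia, VEGFA and ADM did not pass after median centring (0.0566 and 0.0535). CCND1, VEGFA and ADM shared the order of VHL+ groups, with signals under hypoxia between those of VHL+ cells under normoxia and of VHL- cells. NDRG1 and SLC2A1 in VHL+ cells under hypoxia lay above VHL- cells under normoxia.

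**Figure D4:**
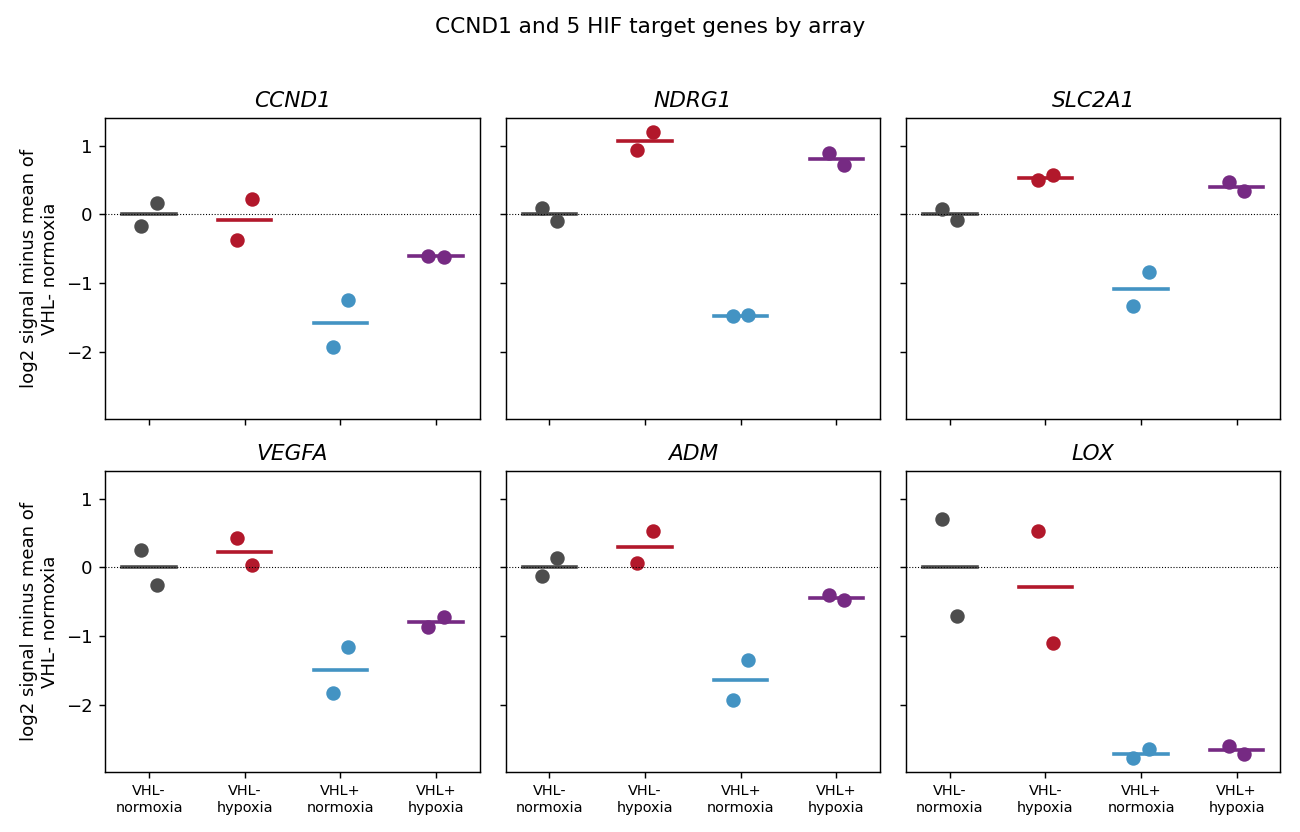
Log2 signals of CCND1 and 5 HIF target genes on each array (y axis, minus the mean of VHL- cells under normoxia) in the 4 groups (x axis). Points are arrays and lines are means of 2. In VHL+ cells under hypoxia, CCND1 (-0.61), VEGFA and ADM stayed below the VHL- normoxia mean, and NDRG1 and SLC2A1 lay above it. LOX stayed as low as under normoxia, with signals below the array's own median on the VHL+ arrays.

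The genes with the pattern most like CCND1 over the 8 arrays were RUNX1 (Pearson r = 0.997), AK4 (0.995), VGLL4 (0.987), IFNAR2 (0.987) and PTX3 (0.985). They were chosen for this likeness out of all genes with 1 symbol, and the 8 arrays fall into 4 groups of 2 that share a line or an oxygen condition, so that no test is given. RUNX1 had 9.11 and 9.25 (normoxia) and 9.01 and 9.24 (hypoxia) in VHL- cells against 8.33 and 8.56 (normoxia) and 8.90 and 8.87 (hypoxia) in VHL+ cells. As with CCND1, its lowest arrays were those of VHL+ cells under normoxia, and all VHL+ arrays lay below the VHL- arrays. The log2 fold changes with VHL under normoxia were -0.73 for RUNX1, -0.78 for AK4, -0.59 for VGLL4, -0.97 for IFNAR2 and -1.53 for PTX3. Among the other members, the signals of CDK6 (r = 0.81) were most like those of CCND1 and those of RB1 (r = -0.62) least.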

How the data were processed

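The authors normalized the 8 Affymetrix arrays in Partek with RMA (Robust Multichip Average) and deposited log2 signals per transcript cluster (4.81 to 14.0), which were used without further transformation. Versions of these tools are not given in the sources used here. All 33297 clusters were tested in R 4.3.3 with limma 3.58.1, in a fit with 1 mean per group (4 residual degrees of freedom) or, for effects over both conditions, with VHL status and oxygen as factors (5 residual degrees of freedom). Benjamini-Hochberg adjustment was over all clusters, with a threshold of 0.05. Symbols came from the array annotation, in which 19460 clusters had 1 symbol, 1754 several and 12083 none, and gene order came from RefSeq.

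The genes named were the 10 members, VHL, up to 4 called genes per list (2 with the lowest p where none was called) and the 5 genes most correlated with CCND1. E2F7, RB1 neighbours, the marker genes and further HIF targets were named after their values were seen. The members and the 11 lists (other CDK inhibitors, cyclin E/A and CDK2, pocket proteins and E2F, ubiquitin ligase subunits, MYC partners, MYC targets, E2F targets, p53 targets, HIF targets, renal markers, markers of other cell types) were chosen with earlier results of these data known. The methods' one-way test was run as an alternative at an unadjusted p under 0.005 and with adjustment, beside a fit to the compared groups alone, trend and robust estimation, a minimum change, no dim clusters, quantile normalization, median centring, a replicate block and each array left out. Quantile normalization with the block, list counts under alternatives and the counts by chromosome and neighbour were chosen after seeing the data. The fits were tested on simulated data. Precision is limited by the number of arrays, 2 per group.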

Additional observations from a re-analysis of the deposited data

How the results depend on the processing

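The number of G1 control genes called depended on the test. With the methods' one-way test at an unadjusted p under 0.005 it was 0 with VHL under normoxia (2 in limma), 1 under hypoxia (2), 1 for VHL+ hypoxia vs. VHL- normoxia (2) and 1 over both conditions (3), and with adjustment 0, 0, 0 and 1. A fit to the compared groups alone gave 0 with VHL under normoxia and 1 for hypoxia in VHL+ cells (0 over all arrays). Trend and robust estimation gave 1 for hypoxia in VHL+ cells and 1 for the interaction (0 and 0), CCND1 in each, and 3 genes each with VHL under normoxia, under hypoxia and for VHL+ hypoxia vs. VHL- normoxia, with CCND3 (adjusted p = 0.0322) added in the first and CCND1 in the others (0.0137 and 0.00448). With VHL under hypoxia, quantile normalization, median centring and a minimum change of 2-fold each gave 1, and the last also gave 1 for VHL+ hypoxia vs. VHL- normoxia. Leaving out 1 array gave 2 to 4 genes with VHL under normoxia, 0 to 3 under hypoxia, 0 to 1 for hypoxia in VHL+ cells, 1 to 3 for VHL+ hypoxia vs. VHL- normoxia, 0 to 1 for the interaction, 3 to 5 for VHL over both conditions and 0 to 1 for hypoxia over both cell types. No log2 fold change of a member changed its sign past the threshold.

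Whether equal replicate numbers mark pairs is not stated in the sources used here. The deviations of same-numbered arrays correlated at 0.60 between the oxygen conditions in VHL- cells and at 0.31 in VHL+ cells. Across the lines they correlated at 0.05 to 0.21. With the replicate number as a block, 4 genes were called with VHL under normoxia, where CCND3 (adjusted p = 0.0104) and CDK6 (0.0251) were added, and 4 over both conditions, with CDK6 added (0.0419). CCND1 was added with VHL under hypoxia (-0.54, adjusted p = 0.00786) and for VHL+ hypoxia vs. VHL- normoxia (0.00208), 3 genes in either. It was the 1 gene called for hypoxia in VHL+ cells (1.02e-06), the 1 for the interaction (0.00313) and the 1 for hypoxia over both cell types (0.0227). The block with quantile normalization gave 0 in these 3.

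Over all clusters, 1587 were called with VHL under normoxia (1 to 2640 over the alternatives), 3873 under hypoxia (1 to 5090), 22 for hypoxia in VHL- cells (0 to 282), 51 in VHL+ cells (0 to 354), 2555 for VHL+ hypoxia vs. VHL- normoxia (1 to 3778), 2 for the interaction (0 to 203), 4770 for VHL over both conditions (260 to 6275) and 57 for hypoxia over both cell types (0 to 328). The causes were not tested.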
